A study of Mus musculus with 12 samples.

Results

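The retinoic acid (RA) response of cultured spermatogonial stem cells (SSCs) was compared between Zmym3 knockout (KO) and wild-type (WT) mice, gene by gene. The measure was the RA response in KO minus the RA response in WT, each taken as c-KIT+ minus SSC on log2(FPKM + 1), where FPKM is fragments scaled to transcript length and to the number of mapped fragments. A value above 0 means that a gene moved up more, or down less, with RA in KO than in WT. This interaction used 8 of the 12 libraries of the series and 11981 of the 22293 genes, those that reached 1 FPKM in 2 or more of the 8. The question was whether cells without ZMYM3 answer RA differently from cells that have it.

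The 4 groups had 2 libraries each. WT SSC and KO SSC libraries came from untreated SSC cultures grown on laminin, and WT c-KIT+ and KO c-KIT+ libraries from cells collected after 100 nM RA for 36 h. According to the labels the mice were males of strain CBA/C57, aged 2 months. The methods of the study describe Cas9 injected with a pair of guides, female founders with frame-shift deletions crossed to wild-type males, and SSC lines from the KO offspring and WT littermates. How many lines stood behind each pair of libraries was not given in the sources used here, so genotype and culture line cannot be told apart. No sort of the c-KIT+ cells was described for these cultures. The 2 libraries of a group are not stated to be separate cultures, so the p-values below rest on library-to-library variation that could be purely technical.

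RA is the signal that moves spermatogonia from self-renewal to differentiation and then into meiosis. It enters the nucleus, binds RAR/RXR receptor pairs on DNA and turns corepressor complexes into coactivator complexes at its target genes. Stra8 and Rec8 are its best known germ cell targets, Cyp26a1 encodes the enzyme that degrades RA, and the KIT receptor marks the differentiating cells. ZMYM3 is a MYM-type zinc finger protein found in a corepressor complex with the histone demethylase LSD1, which makes the RA response one place where its loss could show.

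Both guides are shown because they mark where the gene was cut in the founders of the KO mice. The study bred KO males from more than 1 deletion allele, and which of them the 4 KO libraries carry was not given in the sources used here. They are written 5′ to 3′ in lower case, and the capitals are the PAM that follows each in the gene.
sgRNA1: gaggtgatgccacctgatccAGG
sgRNA2: ggagtctcctcatattgaagAGG
Both matched the coding sequence of exon 2 of transcript Zmym3-203 on the minus strand of chromosome X in GRCm38, at chrX:101418554-101418573 and chrX:101418462-101418481. The exon spans 680 bases, and the expected cut positions, 3 bases before each PAM, lie 92 bases apart.

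Zmym3 itself, located in mm9 on chromosome X between 98599723 and 98616024, measured 40.2 and 37.4 FPKM in WT SSCs, against 9.19 and 9.76 FPKM in KO SSCs. After RA it was at 39.9 and 39.7 FPKM in WT and 10.0 and 11.3 FPKM in KO. All 4 KO libraries lay below all 4 WT libraries in both states. The RA response of Zmym3 differed by 0.11 between the genotypes (SE 0.09, limma adjusted p = 0.849), so the contrast between the genotypes was about the same before and after RA.

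The libraries were alike in depth. Read from the smallest steps of low FPKM values, the depth ran from 0.856 to 1.12 times that of WT SSC replicate 1, and the absolute read number is unknown. Summed FPKM ran from 264539 to 302340, and the highest total came with 26720 FPKM of the microRNA gene Mir3064 in WT SSC replicate 1. The germ cell genes Ddx4 and Dazl were at 86.7 to 113 FPKM and 183 to 203 FPKM over the 8 libraries. Of the 20 Sertoli and Leydig cell genes measured, 9 stayed below 0.1 FPKM in every library. Of 25 spermatocyte and spermatid genes 6, among them the protamine gene Prm1, were listed at 0 in all 8, while Tnp1 was at 4.69 to 12.3 FPKM. Together the 25 summed to 180 to 183 FPKM in WT SSCs and 162 to 174 FPKM in KO SSCs. After RA their sums were 198 to 202 FPKM in WT and 186 to 206 FPKM in KO. The summed FPKM of 29 fibroblast and peritubular genes was 285 to 300 in WT SSCs, 212 to 213 in KO SSCs, 272 to 273 in WT c-KIT+ and 202 to 205 in KO c-KIT+ libraries. It was thus lower in KO in both states, its part in the results was not tested, and in such bulk libraries fewer cells of a type and less RNA per cell cannot be told apart.

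No gene's RA response was called different between KO and WT. In limma's moderated test with Benjamini-Hochberg adjustment, 0 of 11981 genes (0.0%) passed an adjusted p of 0.01, and 0 passed 0.05 or 0.1. The smallest adjusted p was 0.123. At an unadjusted p under 0.05 there were 865 genes (7.22%), where 599 would be met by chance, with 442 (3.69%) higher and 423 (3.53%) lower in KO. Without WT SSC replicate 1 the higher count was 277, without KO c-KIT+ replicate 1 it was 669, and without KO c-KIT+ replicate 2 the lower count was 687. With libraries set to equal total FPKM the split was 157 higher and 829 lower, around a median of all genes moved from 0.00 to -0.08, and 4 genes were called lower, Raet1d, Cbln1, H2-Q2 and Prelid2, with limma adjusted p of 0.0049, 0.0049, 0.0076 and 0.0051.

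The responses themselves ran closely together. Averaged over the genotypes, RA raised 4154 genes (34.7%) and lowered 2562 (21.4%), a split that was 3371 and 3418 with median-ratio scaling. Across the 11981 genes the WT and KO responses, which share no library, had a Pearson correlation of 0.92 and a Spearman correlation of 0.91, given as descriptions since genes are not independent. The sign was the same in both genotypes for 10585 of the 11981 (88.3%). Of the 6716 genes called for the average RA effect 6704 had the same sign, but a call on the average itself favours equal signs. The median difference between the genotypes was 0.00 for the 4154 raised genes (2093 above 0 and 2061 below) and 0.00 for the 2562 lowered genes (1319 above and 1243 below). The median also stayed near 0 where the average response was steep, at 0.00 for the 129 genes raised by 1 to 2 log2 units, 0.04 for the 9 raised by 2 or more, 0.03 for the 248 lowered by 1 to 2 and 0.06 for the 27 lowered by 2 or more. The spread was wider there, with 19.4%, 22.2%, 20.6% and 25.9% of these genes at an unadjusted p under 0.05 and 76.0%, 66.7%, 82.7% and 74.1% with a 95% interval of the difference within 1.5-fold.

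**Figure D1:**
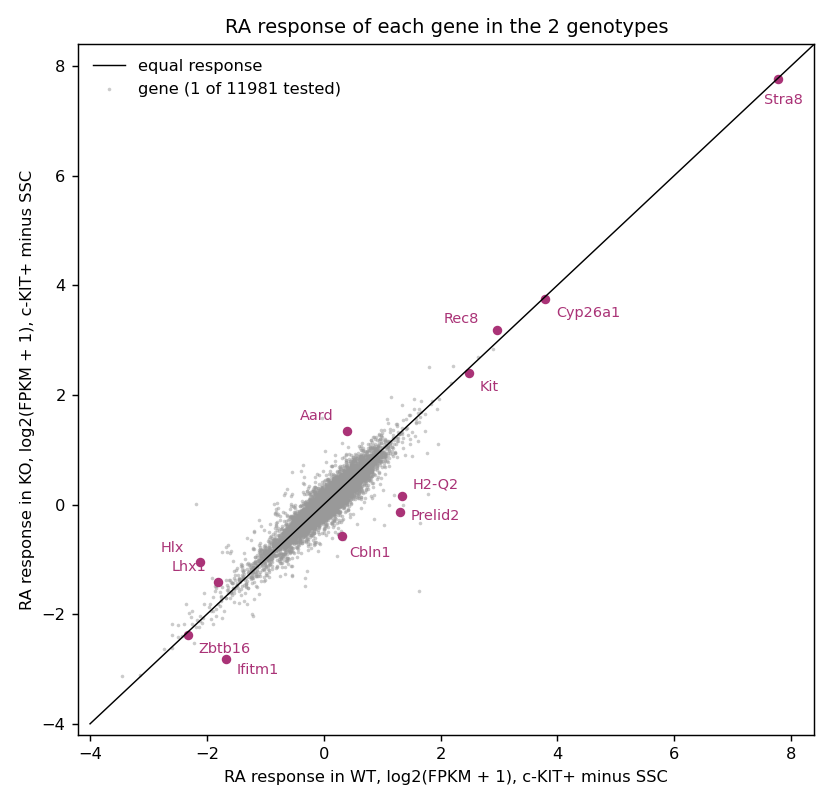
RA response (c-KIT+ minus SSC, log2(FPKM + 1), mean of 2 libraries minus mean of 2) in WT on the x axis and in KO on the y axis, 1 point per gene, with the small nucleolar RNA gene Snord15b left off. The points follow the line of equal response, Stra8 lies at 7.78 in WT and 7.76 in KO, and genes such as Prelid2 (1.30 and -0.14) and Aard (0.40 and 1.34) lie off the line.

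With 2 libraries per group, the size of difference that the data could show was set by the spread between libraries. The median SE was 0.10 log2 units, which puts the size at an unadjusted p of 0.05 at 0.23, or 1.18-fold. A single gene standing alone against all 11981 would have needed 1.30, or 2.46-fold, to be called, and 1.54, or 2.90-fold, to be called in 80% of repeats. This size fell with expression, from 1.73 in the lowest of 4 equal bins of genes by mean level to 1.37, 1.09 and 0.96 in the next bins.

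What was measured is also a bound. The 95% interval of the difference lay within 1.5-fold in either direction for 10867 genes (90.7%) and within 2-fold for 11801 (98.5%). These folds are of FPKM + 1, which understates changes of low genes. With a pseudocount of 0.1 in place of 1, 9308 genes lay within 1.5-fold. Among the RA-raised genes the share within 1.5-fold was 93.5%, and among the RA-lowered genes 91.1%. It was 75.6% in the lowest bin by expression and 98.4% in the highest. On the log2(FPKM + 1) scale, a response that differed by more than 2-fold between the genotypes was therefore outside the interval of nearly every gene. Differences near the median SE could not be called for any single gene.

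**Figure D2:**
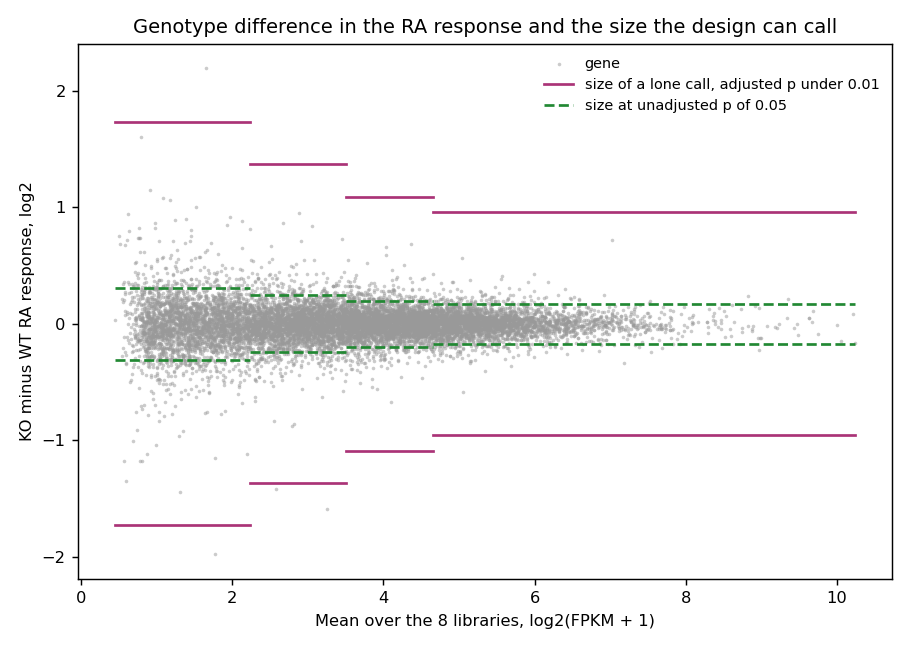
KO minus WT RA response (log2) against the mean log2(FPKM + 1) over the 8 libraries, 1 point per gene, with 2 small nucleolar RNA genes outside the axis. Solid lines give the size a gene standing alone would need for an adjusted p under 0.01, which falls from 1.73 to 0.96 across the 4 bins of expression, and dashed lines give the size at an unadjusted p of 0.05.

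The principal RA targets rose with RA in both genotypes, with no called difference. Stra8, the RA-induced gatekeeper of meiotic entry, on chromosome 6 of mm9 from 34870960 to 34889342, was at 2.10 and 1.54 FPKM in WT SSCs, against 1.93 and 1.44 FPKM in KO SSCs. After RA it reached 627 and 608 FPKM in WT and 556 and 603 FPKM in KO. The genotypes overlapped before RA, and after it both KO libraries lay below both WT libraries, by less than the spread of the fit. The responses were 7.78 and 7.76, a difference of -0.02 (SE 0.15, 95% interval -0.37 to 0.33, limma adjusted p = 0.989).

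Cyp26a1, which encodes the RA-degrading enzyme, was at 0.307 and 0.356 FPKM in WT SSCs, against 0.411 and 0.271 FPKM in KO SSCs. With RA it was at 18.3 and 16.5 FPKM in WT and 16.7 and 17.1 FPKM in KO, so that the genotypes overlapped in both states. The difference of the responses was -0.05 (SE 0.12, 95% interval -0.31 to 0.22). Rarb, an RA receptor gene that RA itself induces, was listed at 0 in all 4 SSC libraries and stood at 2.22 and 1.98 FPKM in WT and 2.22 and 2.47 FPKM in KO c-KIT+ libraries. Its difference was 0.11 (SE 0.12).

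Kit was at 0.684 and 0.571 FPKM in WT SSCs, 0.483 and 0.576 FPKM in the KO SSCs, 7.63 and 8.70 FPKM in WT c-KIT+ and 7.14 and 6.92 FPKM in KO c-KIT+ libraries. The responses of 2.49 and 2.39 differed by -0.10 (SE 0.12, limma adjusted p = 0.908). Rec8, the meiotic cohesin subunit, was at 4.57 and 3.72 FPKM in WT SSCs, 2.09 and 2.92 FPKM in the KO SSCs, 41.8 and 36.8 FPKM in WT c-KIT+ and 30.5 and 30.8 FPKM in KO c-KIT+ libraries. It was lower in both KO libraries of each state, and its responses of 2.97 and 3.19 differed by 0.21 (SE 0.17, limma adjusted p = 0.844). With a pseudocount of 0.1 in place of 1 that difference was 0.36.

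The promoters of Cyp26a1, Rarb and Stra8 are shown because these genes had among the steepest rises with RA in both genotypes, and the first pair hold the direct repeat that RAR/RXR receptors bind. They come from RefSeq windows of build GRCm38.p6, 250 bases before to 50 after the start site, written 5′ to 3′ along the gene. Capitals mark a pair of half-sites spaced by 5 bases, called DR5, where a half-site was AGGTCA or AGTTCA, or GGGTCA or else GGTTCA, on either strand.
Cyp26a1, plus strand, chr19:37697558-37697857: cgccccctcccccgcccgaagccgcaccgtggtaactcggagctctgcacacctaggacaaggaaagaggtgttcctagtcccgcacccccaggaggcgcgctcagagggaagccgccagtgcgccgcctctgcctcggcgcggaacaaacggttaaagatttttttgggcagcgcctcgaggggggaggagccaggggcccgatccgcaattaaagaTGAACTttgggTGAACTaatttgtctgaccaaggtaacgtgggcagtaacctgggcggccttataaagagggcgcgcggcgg
Rarb, minus strand, chr14:16575427-16575726: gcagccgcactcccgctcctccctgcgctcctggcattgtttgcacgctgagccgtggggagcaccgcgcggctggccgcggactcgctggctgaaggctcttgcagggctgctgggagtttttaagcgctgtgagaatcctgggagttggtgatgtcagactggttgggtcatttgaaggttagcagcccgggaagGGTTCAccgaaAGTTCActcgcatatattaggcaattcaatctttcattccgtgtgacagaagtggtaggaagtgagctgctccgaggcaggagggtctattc
Stra8, plus strand, chr6:34920698-34920997: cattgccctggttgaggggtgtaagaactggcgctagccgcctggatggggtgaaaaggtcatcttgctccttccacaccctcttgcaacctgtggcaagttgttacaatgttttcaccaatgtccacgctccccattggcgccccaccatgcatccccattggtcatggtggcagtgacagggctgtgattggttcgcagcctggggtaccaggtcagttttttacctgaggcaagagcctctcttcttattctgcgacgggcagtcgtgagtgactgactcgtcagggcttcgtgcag
The DR5 pair begins 32 bases before the start site in Cyp26a1 and 53 bases before it in Rarb, and the Stra8 window holds none with these letters. Of the 32851 promoter windows, 32 (0.0974%) held a DR5 pair, belonging to 31 genes. Only 3 of these genes passed the filter on low values, Cyp26a1, Rarb and the biliverdin reductase gene Blvrb, and RA raised each of the 3 on average. For Cyp26a1 and Rarb that direction was fixed by the filter, since only their c-KIT+ libraries reached 1 FPKM. Their KO minus WT responses were -0.05, 0.11 and -0.31, with unadjusted p-values from limma of 0.702, 0.391 and 0.121. With spacers of 2 and 1 bases, which RAR/RXR pairs also bind, 10 and 26 tested genes had a match, with median differences of 0.03 and -0.05. RA raised 5 and 8 of them and lowered 3 and 6 on average, where it raised 34.7% and lowered 21.4% of all genes. A match of letters is a description of the window and not of a bound site.

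The wider RA machinery held no called difference either. Of 16 genes of retinoid metabolism and RA targets tested, 4 lay above 0 and 12 below, with a median of -0.09 against 0.00 over all genes, 0 called and 2 at an unadjusted p under 0.05, where 7.22% of all genes were. One of these was Aldh1a3, an RA-synthesizing enzyme gene, at 2.73 and 2.56 FPKM in WT SSCs, against 5.55 and 4.98 FPKM in KO SSCs, and at 0.618 and 0.559 FPKM in WT and 1.03 and 0.750 FPKM in KO after RA. RA lowered it in both genotypes, with responses of -1.20 in WT and -1.73 in KO, a difference of -0.53 (SE 0.14, limma adjusted p = 0.381). The other was Dhrs3, whose enzyme turns retinaldehyde back to retinol, with responses of 0.64 in WT and 0.32 in KO and a difference of -0.32 (SE 0.10). Crabp1, which encodes an RA-binding protein, and Aldh1a2, another synthesizing enzyme gene, differed by 0.00 and 0.11.

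Among 20 receptor and cofactor genes 13 lay above 0, with a median of 0.04 that became -0.03 when libraries were set to equal total FPKM. The receptor genes Rara, Rarg, Rxra and Rxrb differed by 0.07, -0.17, 0.03 and -0.06.

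Counting calls within each genotype gave another picture than testing the difference. RA was called to raise 2982 genes (24.9%) in WT and 2942 (24.6%) in KO, and to lower 1900 (15.9%) and 1912 (16.0%). By the limma fit, RA raised 2416 genes in both genotypes, 565 (4.72%) with a call in WT only and 526 (4.39%) with a call in KO only. It lowered 1616 in both, 284 (2.37%) with a call in WT only and 295 (2.46%) in KO only. These 4 one-genotype classes used the same responses as the difference, so their values are descriptions. Their median differences were -0.15, 0.14, 0.15 and -0.15, and 551 of 565, 512 of 526, 276 of 284 and 277 of 295 genes had the same sign in the other genotype. None of their genes was called for the difference. At an unadjusted p under 0.05 there were 97 (17.2%), 101 (19.2%), 65 (22.9%) and 80 (27.1%), where 7.22% of all genes were. In the 565 genes raised in WT only, for instance, the median response was 0.37 in WT and 0.21 in KO.

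Only Cbln1 was called in both genotypes with opposite signs. Reading the 4 pairs of libraries in each genotype, 1290 genes (10.8%) had every KO response above every WT response and 1233 (10.3%) had every one below. In 103 genes (0.86%) RA moved every KO pair up and every WT pair down, and in 96 (0.801%) the reverse.

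The genes named next had the smallest unadjusted p-values in each direction, and none was called, with limma adjusted p from 0.123 to 0.269 over the 30. They were mostly of low level, 21 of the 30 staying below 10 FPKM in every library. Since they were picked by this contrast, their values are a description of the edge of the distribution. Of those named below, Aard (KO c-KIT+), H2-Q2 (WT c-KIT+), Hoxc4 and Irx1 (WT SSC) and Pla2g2d (KO SSC) reached 1 FPKM in a single group only. For these the filter on low values itself favoured the sign of the difference.

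Of the 15 at the higher end, 14 were lower in KO than in WT before RA, and in 12 the genotypes lay closer together after RA. Extl1, an exostosin-like glycosyltransferase gene of heparan sulfate synthesis on chromosome 4 of mm9 from 133912288 to 133928462, was at 4.91 and 4.36 FPKM in WT SSCs, against 2.00 and 2.15 FPKM in KO SSCs. After RA it was at 2.60 and 2.44 FPKM in WT and 2.47 and 2.44 FPKM in KO. The genotypes were apart in SSCs and overlapped in c-KIT+ libraries. RA lowered Extl1 in WT, where the response was -0.68, and the KO value was 0.17, a difference of 0.85 (SE 0.11, unadjusted p = 4.3e-05, limma adjusted p = 0.123).

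Fbxo3, a ubiquitin ligase adaptor gene, had the same shape at a higher level. It was at 44.6 and 46.2 FPKM in WT SSCs, 31.8 and 28.7 FPKM in the KO SSCs, 26.5 and 28.8 FPKM in WT c-KIT+ and 26.5 and 28.6 FPKM in KO c-KIT+ libraries. The genotypes overlapped in the c-KIT+ libraries, and the responses of -0.70 and -0.13 differed by 0.57 (SE 0.09). Lamb1, the laminin beta 1 chain gene, was flat in WT at 25.3, 25, 24.9 and 26.1 FPKM. In KO it went from 19.6 and 20.0 FPKM to 26.8 and 27.7 FPKM, a called rise of 0.44, and the difference was 0.42 (SE 0.06, limma adjusted p = 0.163).

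Several transcription factor genes at this end fell with RA in WT and began lower in KO. The homeobox gene Hlx was at 5.85 and 4.64 FPKM in WT SSCs, against 1.62 and 1.31 FPKM in KO SSCs, and after RA at 0.564 and 0.309 FPKM in WT and 0.178 and 0.191 FPKM in KO. KO lay below WT in every library of both states. The responses were -2.12 in WT and -1.05 in KO, both called, a difference of 1.06 (SE 0.18). Irx1, Foxl1 and Hoxc4 had differences of 0.82, 0.74 and 0.69, were called lower with RA in WT (in KO only Foxl1 was) and stood at 0.528 FPKM or less in every c-KIT+ library. At such levels the + 1 in the scale weighs on the value, and with a pseudocount of 0.1 that of Hoxc4 was 1.31.

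In other genes at this end the response was on the KO side. Aard, whose protein carries an alanine and arginine rich domain, was at 0.165 and 0.204 FPKM in WT SSCs, 0.0336 and 0.137 FPKM in the KO SSCs, 0.559 and 0.569 FPKM in WT c-KIT+ and 1.57 and 1.95 FPKM in KO c-KIT+ libraries. RA raised it by 0.40 in WT and 1.34 in KO, a difference of 0.94 (SE 0.14) that was 2.15 with a pseudocount of 0.1. Only its KO c-KIT+ libraries reached 1 FPKM, so the filter favoured a difference above 0. Sez6, known for its role in neuronal dendrites, was at 31.0 and 29.2 FPKM in WT SSCs, 31.6 and 30.7 FPKM in the KO SSCs, 32.8 and 33.3 FPKM in WT c-KIT+ and 44.8 and 44.6 FPKM in KO c-KIT+ libraries, so only the KO c-KIT+ libraries stood apart. Its difference was 0.37 (SE 0.06, limma adjusted p = 0.213).

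Of the 15 at the lower end, 9 were higher in KO before RA, and in 9 the genotypes lay closer together after it. Cbln1, a secreted synapse organizer gene on chromosome 8 of mm9 from 89992752 to 89996491, was at 4.11 and 3.44 FPKM in WT SSCs, against 9.94 and 10.1 FPKM in KO SSCs, and after RA at 5.10 and 4.73 FPKM in WT and 6.45 and 6.46 FPKM in KO. KO lay above WT in every library. RA raised it in WT and lowered it in KO, with responses of 0.31 and -0.57, a difference of -0.88 (SE 0.11, limma adjusted p = 0.123).

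Ifitm1, an interferon-induced transmembrane protein gene, was at 3.56 and 4.11 FPKM in WT SSCs, against 9.80 and 11.3 FPKM in KO SSCs. After RA it was at 0.708 and 0.344 FPKM in WT and 0.483 and 0.796 FPKM in KO, so that the genotypes overlapped. RA lowered it in both genotypes, with responses of -1.67 in WT and -2.82 in KO, a difference of -1.15 (SE 0.20). The phospholipase gene Pla2g2d, the formin-family gene Daam2 and the transporter gene Abcc3 also began higher in KO, with differences of -0.91, -0.56 and -0.53. With a pseudocount of 0.1 that of Pla2g2d was -1.52.

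Prelid2, a PRELI domain gene on chromosome 18, was at 0.916 and 1.40 FPKM in WT SSCs, against 0.850 and 1.02 FPKM in KO SSCs, with the genotypes overlapping. After RA it was at 3.92 and 4.68 FPKM in WT and 0.609 and 0.911 FPKM in KO. RA raised it in WT by 1.30 and the KO value was -0.14, so the difference of -1.44 (SE 0.19, 95% interval -1.88 to -1.01, limma adjusted p = 0.123) lay in the WT c-KIT+ libraries, the only ones above 1.40 FPKM. Depdc7 had opposite directions, with 11.1 and 12.8 FPKM in WT SSCs, 15.1 and 15.3 FPKM in the KO SSCs, 14.5 and 14.3 FPKM in WT c-KIT+ and 12.8 and 11.7 FPKM in KO c-KIT+ libraries. Its responses were 0.25, short of a call, and -0.29, called, and they differed by -0.54 (SE 0.10).

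A block of immune surface genes in this direction rested on genes at or near 0 in KO. Raet1d, which encodes a ligand of the NKG2D receptor, rose with RA in WT from 1.45 and 1.12 FPKM to 4.22 and 3.67 FPKM and was under 0.0001 FPKM in all 4 KO libraries. The class I histocompatibility gene H2-Q2 rose in WT from 0.298 and 0.300 FPKM to 2.58 and 2.02 FPKM, and was listed at 0 in both KO SSC libraries and at 0.197 and 0.0433 FPKM in KO c-KIT+ libraries. For such genes the difference of -1.12 for Raet1d and -1.18 for H2-Q2 (SE 0.14 and 0.15) mostly repeats the WT response, since the FPKM listed for KO were 0 or low. The mice were of strain CBA/C57, and a genotype difference in these genes cannot be told apart from one between culture lines. H2-Q6 and H2-Q9 were also at 0.101 FPKM or less in every KO library, with differences of -0.70 and -1.35, and H2-Q9 was at 1.07 FPKM and near 0 in the 2 WT SSC libraries.

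Over the 15 H2 genes tested, 11 lay below 0 and 4 above, with a median of -0.26, and 6 were lower and 2 higher at an unadjusted p under 0.05, where 3.53% and 3.69% of all genes were. The median stayed below 0 at every scaling, and was -0.15 without WT c-KIT+ replicate 2 and -0.11 with a mean of at least 5 FPKM. It was not shared by all: the classical gene H2-K1 responded by 1.45 in WT and 1.26 in KO, while H2-Q1 was higher in KO by 0.57 (SE 0.19). These genes are close copies of each other, so that reads shared between them may be divided differently in each library.

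**Figure D3:**
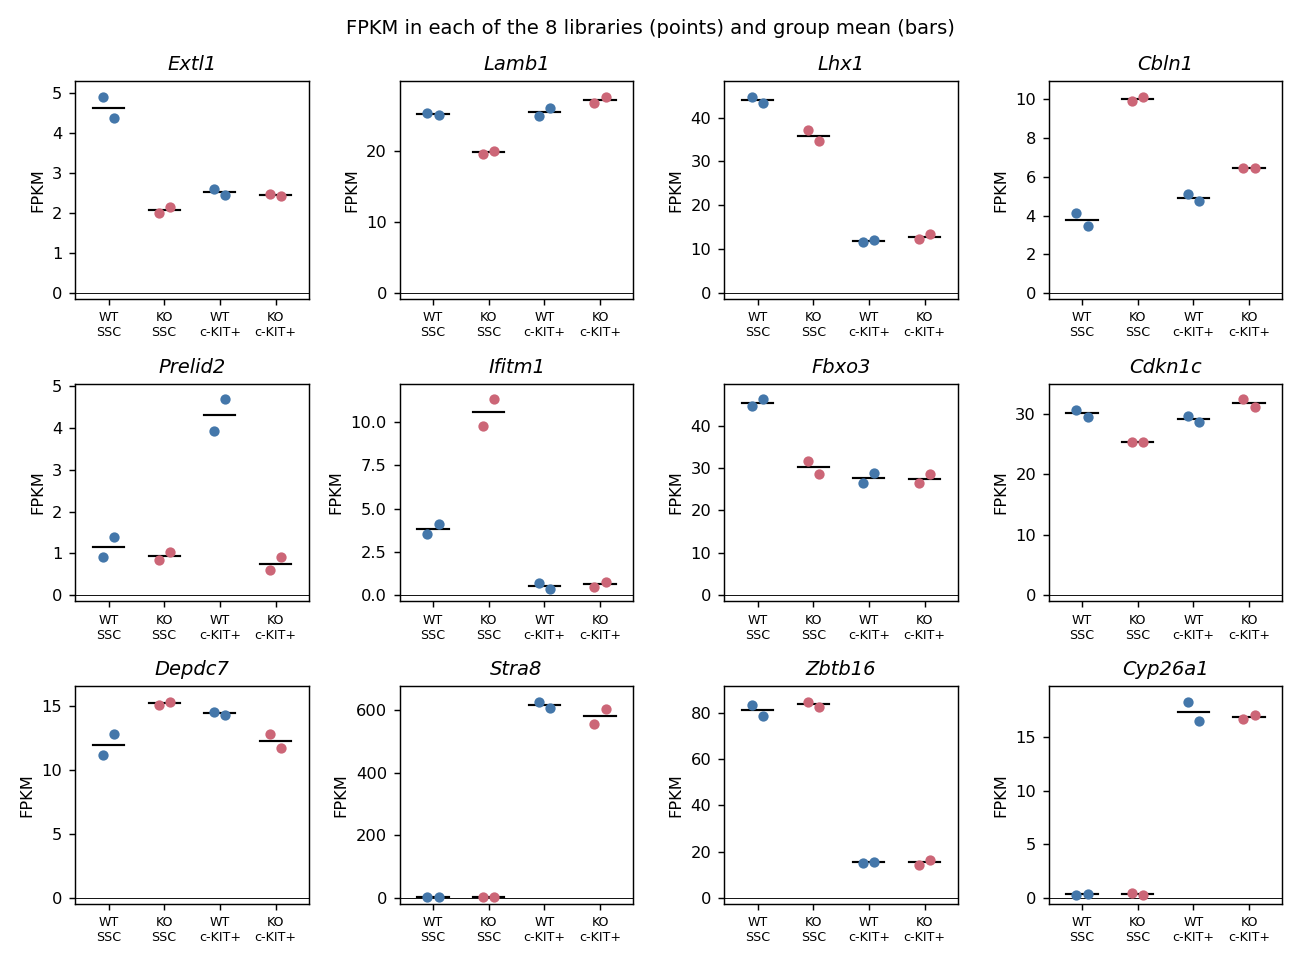
FPKM of 12 genes in each of the 8 libraries (points, blue for WT and red for KO) with the mean of the 2 libraries of a group (black bars), each panel on its own linear axis. Extl1, Fbxo3 and Ifitm1 differ between the genotypes in SSC and overlap in c-KIT+ libraries, Prelid2 differs after RA only, and Stra8, Zbtb16 and Cyp26a1 move alike in both genotypes.

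The gene groups described from here were read by their counts and medians, and no group held a called gene. Of 32 genes of undifferentiated spermatogonia, which include self-renewal factors, RA lowered 21 and raised 2 on average, where 21.4% and 34.7% of all genes were called. Their KO minus WT responses were above 0 in 21 of 32, with a median of 0.06 that became -0.02 at equal total FPKM. At an unadjusted p under 0.05 there were 4 higher and 2 lower, where 3.69% and 3.53% of all genes were.

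The best known of them fell alike. Zbtb16, which encodes the stem cell factor PLZF, was at 83.7 and 78.7 FPKM in WT SSCs, 84.9 and 82.7 FPKM in the KO SSCs, 15.2 and 15.5 FPKM in WT c-KIT+ and 14.2 and 16.6 FPKM in KO c-KIT+ libraries, with the genotypes overlapping after RA. Its difference was -0.04 (SE 0.10). The GDNF receptor genes Gfra1 and Ret, the bHLH inhibitor gene Id4 and the forkhead gene Foxc2 differed by 0.02, -0.01, -0.04 and 0.05.

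Other genes of this group began lower in KO and had a difference above 0, none of them called. Lhx1, a GDNF-responsive homeobox gene, was at 44.8 and 43.3 FPKM in WT SSCs, against 37.1 and 34.6 FPKM in KO SSCs, and after RA at 11.7 and 12.2 FPKM in WT and 12.4 and 13.3 FPKM in KO. The order of the genotypes turned over without overlap. Its responses were -1.80 in WT and -1.41 in KO, a difference of 0.39 (SE 0.08, limma adjusted p = 0.275). Plvap was at 34.2 and 31.1 FPKM in WT SSCs, 12.3 and 12.2 FPKM in the KO SSCs, 7.25 and 6.93 FPKM in WT c-KIT+ and 3.55 and 3.14 FPKM in KO c-KIT+ libraries. It stayed lower in KO throughout and differed by 0.45 (SE 0.10). Neurog3, a factor of transit-amplifying progenitors, went from 2.55 and 2.63 FPKM to 0.0891 and 0.273 FPKM in WT and from 0.745 and 1.05 FPKM to 0.0326 and 0.0281 FPKM in KO. Its difference of 0.73 (SE 0.16) was 0.42 with a pseudocount of 0.1 and depends on that constant, since the ratio of its FPKM after and before RA was the smaller in KO. For the RNA-binding translational repressor gene Nanos2 the difference was 0.34 (SE 0.14), or 0.08 with that pseudocount.

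Lin28a, an RNA-binding protein gene that blocks let-7 maturation, went the other way. Its response was -0.27 in WT, from 51.3 and 47.8 FPKM to 41.7 and 39.9 FPKM, and -0.51 in KO, from 41.2 and 40.3 FPKM to 28 and 28.6 FPKM. The KO fall was the deeper in every pair of libraries, and the difference was -0.24 (SE 0.07, unadjusted p = 0.00806, limma adjusted p = 0.498). The pluripotency gene Pou5f1 differed by 0.28 (SE 0.14) and the zinc finger gene Sall4 by 0.19 (SE 0.11).

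ERK signalling carries the GDNF and FGF input of SSCs, and 14 of its 18 feedback genes tested were called lower with RA on average and 1 higher, where 21.4% and 34.7% of all genes were. Of the 18, 14 had a KO minus WT response above 0, with a median of 0.06 that became -0.02 at equal total FPKM and ran from -0.00 without WT SSC replicate 1 to 0.14 without WT SSC replicate 2. Dusp4, a MAP kinase phosphatase gene, had responses of -2.05 in WT and -1.82 in KO, a difference of 0.23 (SE 0.09), while Dusp6, Spry4 and Etv5 differed by 0.09, 0.04 and 0.03. The 21 immediate-early genes were split, 10 above and 11 below 0 with a median of -0.01. Of the 21, 2 were higher at an unadjusted p under 0.05, where 3.69% of all genes were. Egr1, with the smallest p among them, was at 80.1 and 72.2 FPKM in WT SSCs, against 80.8 and 76.7 FPKM in KO SSCs, with the genotypes overlapping, and after RA at 43.9 and 41.3 FPKM in WT and 56.5 and 62.8 FPKM in KO. Its responses were -0.82 in WT and -0.40 in KO, and the difference was 0.42 (SE 0.10, limma adjusted p = 0.314).

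The genes of differentiating spermatogonia were split, 10 above and 10 below 0 with a median of -0.01. Genes of the synaptonemal complex, chromosome axis and cohesin lay below 0 in 15 of 19, with a median of -0.04 that held its sign at every scaling. Of the 19, 0 were at an unadjusted p under 0.05, where 7.22% of all genes were. Sycp3, an axial element gene, was at 43.0 and 44.1 FPKM in WT SSCs, 54.3 and 62.5 FPKM in the KO SSCs, 103 and 91.4 FPKM in WT c-KIT+ and 113 and 112 FPKM in KO c-KIT+ libraries. It was higher in KO in both states and rose in both genotypes, by 1.14 and 0.94, a difference of -0.20 (SE 0.11, limma adjusted p = 0.738). Sycp1, the transverse filament gene, overlapped between the genotypes after RA and differed by -0.23 (SE 0.12). Sycp2, Smc1b, Stag1 and Smc2 differed by -0.12, -0.12, -0.04 and -0.10.

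Of 24 genes of meiotic breaks and crossovers 16 lay below 0, with a median of -0.08. Scored per library, by the median of the members in each library, the KO minus WT response of the group was 0.01 (SE 0.04). Of the 24, 1 was higher and 2 were lower at an unadjusted p under 0.05, where 3.69% and 3.53% of all genes were. The recombinase gene Dmc1 rose by 0.83 in WT and 0.58 in KO, a difference of -0.25 (SE 0.10), and Mei1 and Rad51c differed by 0.14 and -0.10. The 21 piRNA pathway genes had a median of -0.03, with Mov10l1, Mael and Rnf17 at -0.05, -0.04 and -0.14. Among them the Tudor gene Tdrd12 had responses of -0.02 in WT, not called, and -0.32 in KO, called, a difference of -0.29 (SE 0.09).

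Cell cycle genes and kinesins leaned below 0. This was so for 14 of 18 cyclins, CDKs and CDK inhibitors (median -0.10), 19 of 24 MCM and replication origin genes (median -0.08), 19 of 26 spindle checkpoint genes (median -0.07) and 23 of 33 kinesins (median -0.06), against 6056 of 11981 genes overall. All 4 medians stayed below 0 at every scaling and without any 1 library, but their size rested on single libraries. Without KO c-KIT+ replicate 1 the cyclin median was -0.01, the MCM median -0.05 and the spindle checkpoint median -0.03, and without WT c-KIT+ replicate 1 the kinesin median was -0.02. Scored per library, the KO minus WT response was -0.14 (SE 0.06) for the cyclin group and -0.09 (SE 0.04), -0.07 (SE 0.03) and -0.03 (SE 0.02) for the others. Before RA the summed FPKM of each group was higher in both KO libraries, for the MCM group at 1177 to 1181 against 1112 to 1126 in WT. After RA the sums overlapped for all but the kinesins, with the MCM group at 1224 to 1250 in KO and 1232 to 1244 in WT.

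Single cell cycle genes showed modest shifts. Cdk6, a G1 kinase gene, was at 1.25 and 1.39 FPKM in WT SSCs, 2.25 and 2.21 FPKM in the KO SSCs, 2.25 and 2.11 FPKM in WT c-KIT+ and 1.90 and 1.82 FPKM in KO c-KIT+ libraries. WT rose to the level that KO had at the start, by 0.46, and the difference was -0.63 (SE 0.11, limma adjusted p = 0.213). Cdkn1c, a CDK inhibitor gene, moved the other way, from 25.3 and 25.4 FPKM to 32.4 and 31.1 FPKM in KO against 30.6 and 29.4 FPKM to 29.6 and 28.5 FPKM in WT, a difference of 0.36 (SE 0.06). The mitotic cyclin gene Ccnb1 and the survivin gene Birc5 differed by -0.31 and -0.32 (SE 0.09 and 0.10), the licensing inhibitor gene Gmnn by -0.22 (SE 0.08), while Ccnd1, Cdk4 and Mad2l1 were all at 0.00.

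The 360 zinc finger genes tested were centred on 0, with 185 above and 175 below and a median of 0.00. Zfp423 was at 2.05 and 1.94 FPKM in WT SSCs, against 0.745 and 0.632 FPKM in KO SSCs, and after RA at 2.73 and 2.11 FPKM in WT and 2.20 and 2.08 FPKM in KO. It overlapped between the genotypes only after RA, and its difference was 0.71 (SE 0.14), or 1.26 with a pseudocount of 0.1. The imprinting factor gene Zfp57 differed by -0.46 (SE 0.14). The study grouped zinc finger genes that it found raised by RA in KO but not WT. Of those tested here 41 of 54 lay above 0 with a median of 0.08, 0 called. Because that set was chosen on these samples, its direction is not independent evidence. The median response of the 54 was 0.43 in WT and 0.49 in KO, so they rose in WT as well. Of the 360, RA was called to raise 78 in WT and 89 in KO, where 24.9% and 24.6% of all genes were. The study's list of genes raised in both genotypes held 0 zinc finger genes by symbol. The 19 genes of the LSD1-CoREST-HDAC complex and the MYM family had a median of 0.01, with the corepressor gene Rcor2 at -0.10 (SE 0.06).

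Hox genes were mostly silent, with 11 of 39 tested, of which 7 lay above 0 with a median of 0.14. Apart from Hoxc4, none was at an unadjusted p under 0.05, and Hoxb8, lower in KO in all 4 libraries, differed by -0.00 (SE 0.08). Polycomb, DNA methylation, p53 target, heat shock and BCL2 family genes had medians of -0.03, 0.01, 0.01, 0.05 and -0.10. The medians of housekeeping groups lay close to 0, with -0.03 for 83 cytosolic and -0.03 for 76 mitochondrial ribosomal protein genes, -0.02 for 89 respiratory chain genes and -0.02 for 38 proteasome genes. Single members spread widely, from -1.42 to 0.66 in the cytosolic ribosomal group and from -0.73 to 1.60 in the respiratory chain group. In the cytosolic ribosomal group 66.3% lay within 1.5-fold, against 90.7% of all genes, with Rpl26 at -0.59 (SE 0.15) and Rpl24 at 0.49 (SE 0.14), neither called. The 21 glycolysis genes were split, 8 above and 13 below 0 with a median of -0.02, and the hexokinase gene Hk2 and the lactate dehydrogenase gene Ldha, with their smallest p-values, were at -0.27 (SE 0.06) and -0.30 (SE 0.09). The 19 ATF4 and unfolded protein response genes had 7 above and 12 below 0 and a median of -0.03, while the group scored per library was at 0.04 (SE 0.03). Of the 19, 3 were lower at an unadjusted p under 0.05, where 3.53% of all genes were. Among them the serine and glycine pathway genes Psat1 and Shmt2 were at -0.32 and -0.29 (SE 0.07 each), while Phgdh of the same pathway was at 0.03 and Asns, the asparagine synthetase gene, at 0.07, none called.

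Markers of other cell types gave no called difference either. Of 4 macrophage and endothelial genes tested 3 lay below 0, with a median of -0.23, and the endothelial receptor gene Kdr and cadherin gene Cdh5 were at -0.34 (SE 0.13) and 0.37 (SE 0.15). Of 9 spermatocyte and spermatid genes 7 lay above 0, with a median of 0.07 and the meiotic kinase gene Aurkc at 0.42 (SE 0.18), and of 3 Sertoli and Leydig genes 2 did, with Clu at 0.26 (SE 0.12). The 24 fibroblast and peritubular genes tested had a median of 0.03, with S100a4 at 0.42 (SE 0.16) and the collagen gene Col1a1 at -0.07 (SE 0.07). Col1a1 was at 37.2 and 36.8 FPKM in WT SSCs, against 27.3 and 26.1 FPKM in KO SSCs, and at 40.3 and 39.2 FPKM in WT and 28.3 and 26.2 FPKM in KO after RA, lower in KO without overlap in both states. Emb, an adhesion protein gene, was at 10.8 and 10.7 FPKM in WT SSCs, 1.05 and 1.61 FPKM in the KO SSCs, 10.1 and 9.93 FPKM in WT c-KIT+ and 1.57 and 2.13 FPKM in KO c-KIT+ libraries, a difference of 0.39 (SE 0.18, limma adjusted p = 0.720).

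**Figure D4:**
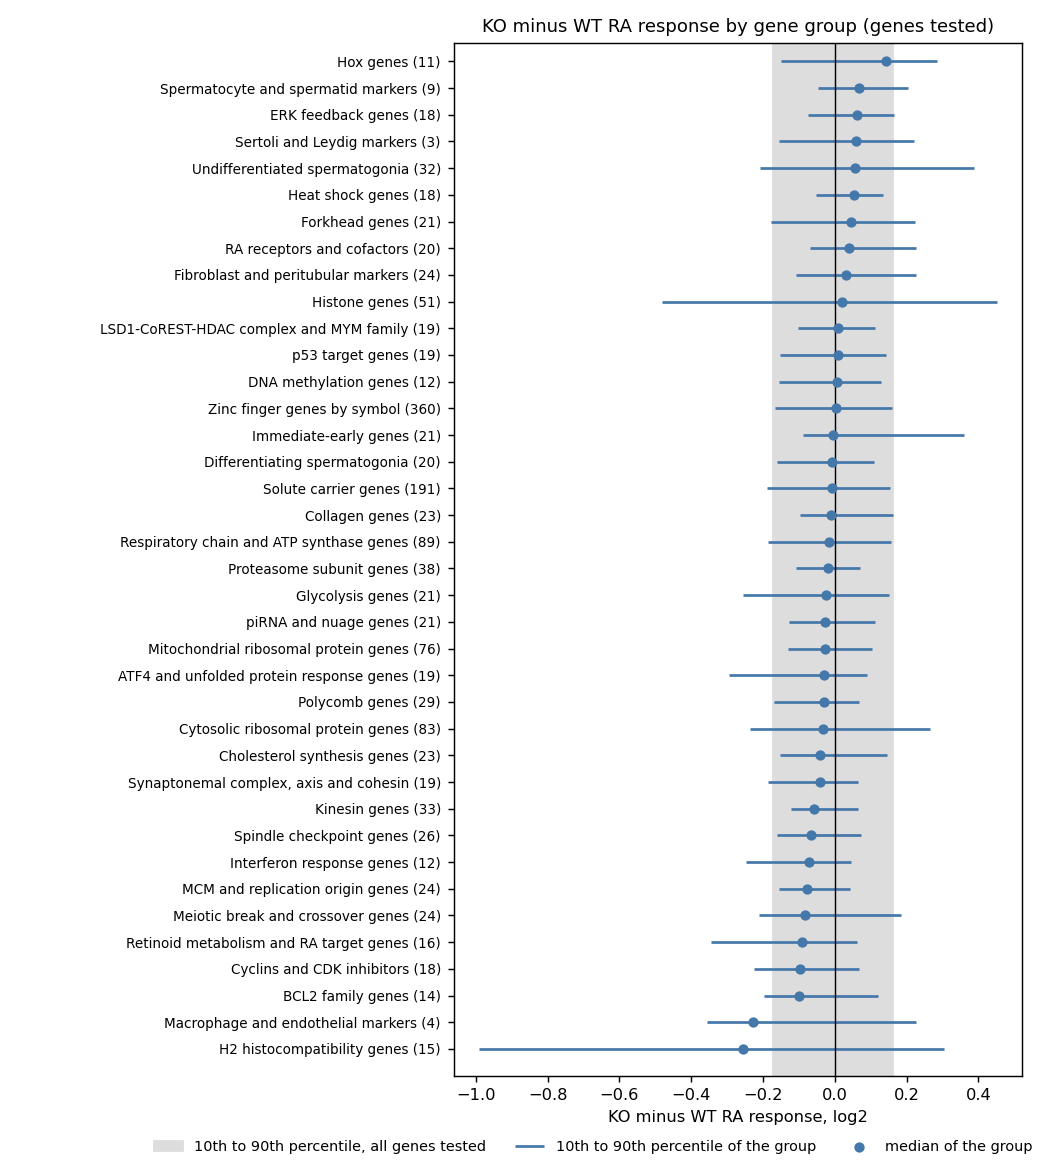
KO minus WT RA response (log2) of 38 gene groups, with the median of the tested genes as a point and the 10th to 90th percentile of the group as a bar, beside the same range over all 11981 genes as a grey band. Medians lie between -0.26 for the H2 genes and 0.14 for the Hox genes, and apart from the H2 genes and the 4 macrophage and endothelial genes they lie inside the band.

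The difference could also be read from the other side, as a change of the KO minus WT contrast with RA. The estimate of the genotype effect averaged over both states shares no error with the estimate of the interaction. Both tests use the same spread of a gene, however, so calls on the average favour genes with a small SE. By this average, 564 genes (4.71%) were called higher and 642 (5.36%) lower in KO. In 738 of these 1206 the KO minus WT contrast was smaller after RA and in 468 it was larger, so that 61.2% narrowed. The median size of the contrast went from 0.37 in SSCs to 0.33 in c-KIT+ cells. At an unadjusted p under 0.05, 192 narrowed and 57 widened, where 7.22% of all genes were at that p in either direction. No single gene of the 1206 was called for the change.

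This lean was similar in genes that were higher in KO (349 of 564) and lower in KO (389 of 642). It was seen in genes raised by RA (227 of 372), lowered by RA (251 of 393) and not called for RA (260 of 441), and in genes with a mean of at least 5 FPKM (480 of 780). With a pseudocount of 0.1 it was 750 of 1206, and with 1 library left out it ran from 714 to 758. Where the set itself was called anew, the narrowing share ran from 53% to 57.9% without 1 c-KIT+ library and from 59.6% to 65.1% without 1 SSC library. In such a set the call and the change share error. This favours widening where a c-KIT+ library is left out and narrowing where an SSC library is. The spread between the 2 libraries of a group was of like size in the states, with a median absolute difference of 0.08 in WT SSC, 0.07 in KO SSC, 0.06 in WT c-KIT+ and 0.09 in KO c-KIT+.

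**Figure D5:**
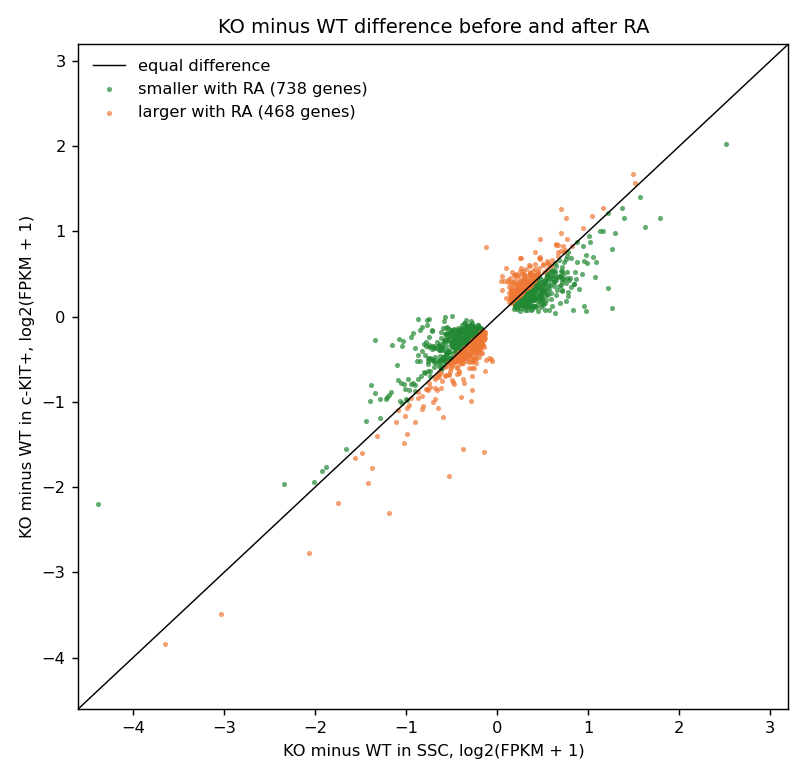
KO minus WT difference in SSC (x axis) and in c-KIT+ (y axis), log2(FPKM + 1), for the 1206 genes called for the average genotype effect. Green points (738 genes) lie nearer to 0 after RA than the line of equal difference and orange points (468 genes) lie farther from it.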

How the data were processed

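RNA-seq libraries of 2 WT SSC, 2 KO SSC, 2 WT c-KIT+ and 2 KO c-KIT+ samples were analysed, and the 4 spermatocyte libraries were not part of the comparison. Per the labels and the submitters' processing notes, the authors made the deposited FPKM values with TopHat2 2.0.6 and Cufflinks 2.0.2 on genome build mm9. FPKM hold no read counts, so no count model was run and absolute depth is unknown. Libraries were joined by gene symbol, since the order of the genes differs between files. The 728 entries with one of 259 repeated symbols were left out, and 22293 of 23021 remained. Some symbols (25) read as dates and were kept as written.

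Values were used as log2(FPKM + 1), which understates changes of low genes, with genes at 1 FPKM or more in at least 2 libraries. limma 3.58.1 in R 4.3.3 fitted 1 mean per group with a variance trend (4 residual and 4.45 prior degrees of freedom). Adjusted p-values are Benjamini-Hochberg over 11981 genes, called under 0.01. Intervals are 95%. The fit was tested on simulated data. Named genes were 25 fixed ones, the 15 smallest p and 5 largest values in each direction, and from each of 38 lists every member at an unadjusted p under 0.01 or else the one with the smallest p, with microRNA, snoRNA and Gm symbols counted only. Genes beyond this rule that are given in a clause were chosen after their values were seen. The members and lists were chosen with earlier results of these data known. A pseudocount of 0.1, other filters, scalings, moderation, thresholds, a replicate block and leaving out each library were tried. Sequences come from the study's guide list, GENCODE vM21 and RefSeq. Some genes are not reported here.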

Additional observations from a re-analysis of the deposited data

How the results depend on the processing

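Equal total FPKM, which takes in the Mir3064 and Snord33 values of single libraries, shifted the median difference of all genes from 0.00 to -0.078, gave 157 higher and 829 lower genes at an unadjusted p under 0.05, and called 4 lower genes, Raet1d (-1.17), Cbln1 (-0.95), H2-Q2 (-1.20) and Prelid2 (-1.49). When the total excluded small RNAs, 0 were called. No filter on low values gave 695 higher and 680 lower at that p, 16312 genes within 1.5-fold and 365 genotype genes higher. A mean of at least 5 FPKM gave 280 and 238, 2685 genes raised by RA on average, 372 genotype genes higher and 370 lower, and 480 narrowing. Without moderation, 100 genotype genes were higher and 138 lower, and a lone call needed 5.01. At adjusted p under 0.05 and 0.1, the genotype genes were 1276 and 1831 higher and 1330 and 1821 lower.

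Leaving out 1 library, called interactions ran from 0 to 1 higher and 0 to 1 lower, genes at the unadjusted p from 277 to 669 higher and 292 to 687 lower, genotype genes from 270 to 487 higher and 329 to 503 lower, and the median over all genes from -0.030 without KO c-KIT+ replicate 2 to 0.030 without KO c-KIT+ replicate 1. The calls were Snord15b without WT SSC replicate 1 or replicate 2, Pisd-ps3 without WT SSC replicate 1 and Gm15772 without WT c-KIT+ replicate 1. Whether replicate numbers pair the libraries is not stated. Correlations of deviations ran from -0.07 to 0.28 and were highest within a genotype, at 0.17 in WT and 0.28 in KO. With a replicate block shared by all 4 groups 0 genes were called, 455 higher and 429 lower at the unadjusted p.

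Of 102 named genes 96 kept their sign at every setting. Stra8 was at 0.014 with a pseudocount of 0.1 and 0.031 after quantile normalization, Hoxb8 at 0.012 with that pseudocount and 0.0064 after median-ratio scaling, and Gfra1 at -0.065 with equal totals. With 1 library left out, Stra8 ran from -0.16 to 0.12, Hoxb8 from -0.049 to 0.045, Gfra1 from -0.017 to 0.058, Cyp26a1 from -0.12 to 0.030, Smc1b from -0.24 to 0.012 and Zbtb16 from -0.15 to 0.061. The causes were not tested.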
